A study of Saccharomyces cerevisiae with 12 samples.

Results

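Early cultures of Saccharomyces cerevisiae that received NaHS were compared with early cultures that received none, using 6 of the 12 libraries of the series. The strain was BY4742, a laboratory haploid of mating type alpha, grown in synthetic complete medium with dextrose (SDC). Both early groups share this strain and medium, and early means before 72 h after inoculation. The 3 control libraries (Early_control) were untreated and the 3 NaHS libraries (Early_NaHS_treatment) were treated with sodium hydrosulfide, whose dose the labels do not give. All 7126 entries that name a gene were taken, and the 6124 with a mean of at least 1 TPM over the 6 libraries were tested. TPM is a level scaled by transcript length and by the library total, so it can be compared between genes. It is a share of the RNA sequenced, so a smaller share and less RNA per cell cannot be told apart. Whether the 3 libraries of each group are separate cultures is not stated, and p then measures their spread alone, which may be technical.

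NaHS releases hydrogen sulfide in water, a gas known to inhibit cytochrome c oxidase, the last enzyme of the respiratory chain. Budding yeast ferments glucose first, and when glucose runs low it turns to ethanol and acetate, which it activates to acetyl-CoA and moves between compartments as carnitine esters. Acetyl-CoA and the vitamin biotin feed fatty acid synthesis, and inositol feeds membrane phospholipids under the control of the activator pair Ino2 and Ino4. The sulfur pathway, heat shock proteins and CUP1 are the best-known part of the response and are left aside here, with 28 further genes whose changes were already known when the ranking was made, 169 genes in all. A gene with a 0 in any library was not ranked either. Of the genes with a mean of at least 10 TPM, 12 called lower without overlap fell by more than the first ranked gene, of which 10 were left aside and 2 had a 0, and 8 rose by more than the first ranked gene, of which 7 were left aside and 1 had a 0. Among these were the alcohol dehydrogenase gene ADH2 and the water channel gene AQY1, both lower.

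More genes were called lower than higher with NaHS, and the split moved with the scaling. Of the 6124 genes, 1743 were called lower (28.5%) and 616 higher (10.1%), 38.5% in all, where a call is an adjusted p below 0.05 in limma's moderated test on log2(TPM + 1), with Benjamini-Hochberg adjustment over all genes. The median log2 change of all genes was -0.24, and it moved to -0.01 with median-ratio scaling and to 0.07 with upper-quartile scaling. The calls were then 1066 higher and 1123 lower, and 1227 higher and 978 lower. All 616 genes called higher kept that call under both scalings, and 978 of those called lower did (16.0% of the genes tested). Both scalings shifted the median change upward, so a rise was unlikely to be lost. The check therefore bears on falls, and rises found only with these scalings are not counted in it. In the text, "rose" and "fell" mean called, a value in brackets is a log2 change on the log2(TPM + 1) scale, NaHS minus control, and a call lost under another scaling is marked. Every scaling means the deposited values and these 2.

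The controls were alike, and NaHS 3 stood apart from NaHS 1 and NaHS 2. Pearson's r of log2 values was at least 0.986 among controls, 0.987 between NaHS 1 and NaHS 2, and 0.968 or less between NaHS 3 and either. Among 4134 genes with a mean of at least 10 TPM, NaHS 3 lay more than 1 log2 unit below the mean of the other NaHS libraries at 434 genes and above it at 82. No other library lay below its group at more than 28 genes. NaHS 1 and NaHS 2 lay above the mean of the other NaHS libraries at 90 and 108 genes, so only the falls set NaHS 3 apart in these counts. Without NaHS 3 there were 2321 genes called lower and 946 higher, against 1093 to 1164 lower and 299 to 328 higher when 1 control was left out. Leaving out NaHS 1 gave 1467 lower and 450 higher, and leaving out NaHS 2 gave 1526 and 499. List counts below with a library left out are to be read beside these, since the calls over all 6124 genes moved too. The CUP1 repeat held 4.73% of the total in NaHS 3, 9.40% and 10.7% in NaHS 1 and NaHS 2, and 0.582% to 0.719% in the controls. The alpha pheromone gene MF(ALPHA)1 read 54.8 to 110 TPM, while the a-factor genes MFA1 and MFA2 and the deleted LEU2, LYS2 and URA3 were listed at 0 in all 6 libraries. HIS3, of which BY4742 keeps a part, read 301 to 345 TPM. The other alpha-cell genes read less than MF(ALPHA)1: STE3 3.3 to 8.72 TPM, MF(ALPHA)2 1.37 to 9.75 TPM and SAG1 11.3 to 21.3 TPM. The a-cell gene ASG7 read 12.3 to 23.5 TPM, and STE2 4.19 to 15.4 TPM, so these ranges overlap those of alpha-cell genes. Of the further a-cell genes, BAR1 read 1.34 to 1.95 TPM, AGA2 0.81 to 7.23 TPM and STE6 0.51 to 0.91 TPM.

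**Figure D1:**
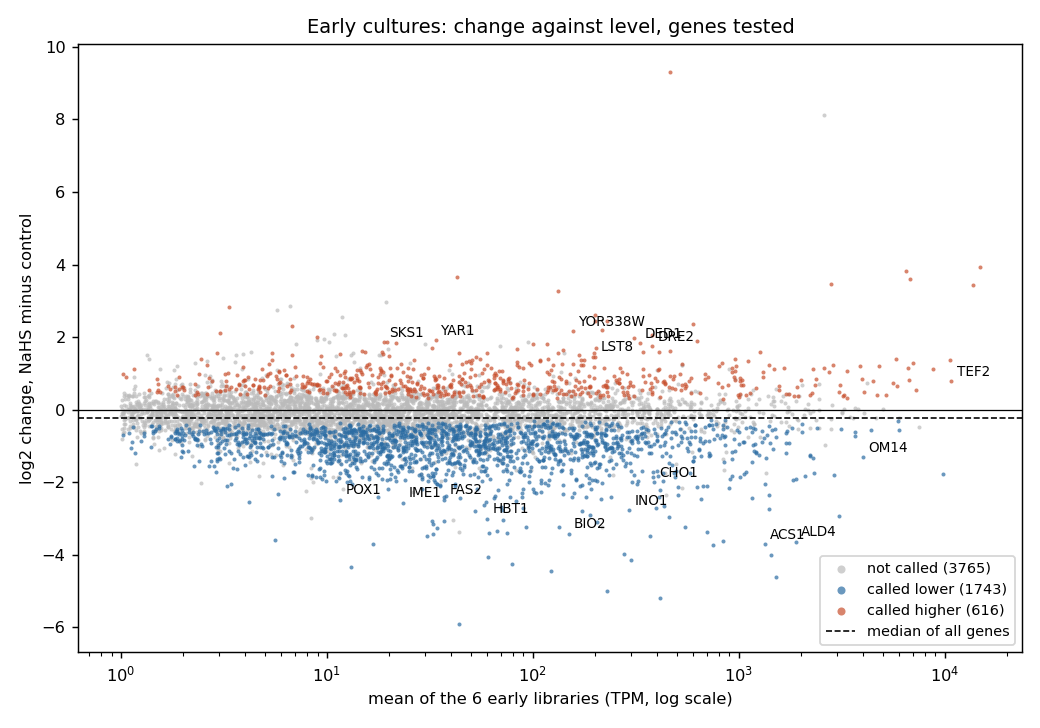
Log2 change (NaHS minus control, vertical axis) against the mean of the 6 early libraries (TPM, horizontal log axis) for the 6124 genes tested, coloured by call, with the median of all genes as a dashed line. The 1743 genes called lower lie at every level, and the named falls such as ACS1 and ALD4 lie among abundant transcripts.

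The acetate genes ACS1 and ALD4 held the 2 largest falls among the genes that were ranked, and carnitine shuttle genes fell by less. ACS1, the acetyl-CoA synthetase used on non-fermentable carbon, lies on chromosome I, bases 42881 to 45022 of R64 and read 2536, 2611 and 2133 TPM in the controls and 202, 455 and 66.9 TPM with NaHS (log2 change -3.71, SE 0.64, adjusted p = 0.00617). ALD4, a mitochondrial aldehyde dehydrogenase that makes acetate, read 3444, 3657 and 3317 TPM in the controls and 329, 429.9 and 152 TPM with NaHS (log2 change -3.63, SE 0.36, adjusted p = 0.000997). Every NaHS value of both genes lay below every control value, and NaHS 3 was the lowest. The second synthetase gene, ACS2, which is used during growth on glucose, fell as well, from 91.9, 86.6 and 96.8 TPM in the controls to 17.3, 14.9 and 6.98 TPM with NaHS (log2 change -2.81). ADY2, a plasma membrane acetate transporter, read 2075, 2168 and 1564 TPM in the controls and 326, 594 and 227 TPM with NaHS (log2 change -2.44). The carnitine acetyltransferase gene CAT2 read 725, 694 and 618 TPM in the controls and 110, 168 and 59.7 TPM with NaHS (log2 change -2.70), and again the groups did not overlap. CRC1, the mitochondrial carrier of acetylcarnitine, read 2565, 2527 and 1934 TPM in the controls and 431, 844 and 118 TPM with NaHS (log2 change -2.73, not called without control 1, 2 or 3, adjusted p up to 0.0707). The transferase genes YAT1 (-1.75, not called without control 1, 2 or 3, adjusted p up to 0.067) and YAT2 (-0.998) fell with them.

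The enzymes of the methylcitrate cycle, which clears propionyl-CoA in mitochondria, formed a second block of large falls. PDH1, the 2-methylcitrate dehydratase, read 128, 130.3 and 124 TPM in the controls and 15.6, 18.4 and 10.9 TPM with NaHS (log2 change -3.04, SE 0.19, adjusted p = 0.000355). CIT3, its citrate synthase, read 255, 279 and 243 TPM in the controls and 59.7, 64.6 and 29.2 TPM with NaHS (log2 change -2.39). ICL2, the 2-methylisocitrate lyase, read 157, 175 and 170.3 TPM in the controls and 46.0, 41.3 and 20.4 TPM with NaHS (log2 change -2.27). In all 3 genes the groups did not overlap, and NaHS 3 was the lowest library. CIT3 and ICL2 were chosen after their values were seen. The glyoxylate cycle gene ICL1, for isocitrate lyase, read 5317, 5206 and 5180.3 TPM in the controls and 1086, 1504 and 198 TPM with NaHS (log2 change -2.93, not called without control 1, 2 or 3, adjusted p up to 0.0695). GPD1, the glycerol-3-phosphate dehydrogenase gene, read 824, 827 and 752 TPM in the controls and 157, 159 and 42.7 TPM with NaHS (log2 change -2.95). The open reading frame YDL023C, numbered next to GPD1 and without a position in the annotation used, read 976, 1016 and 919 TPM in the controls and 151, 173 and 40.1 TPM with NaHS, and reads of overlapping frames cannot be told apart here.

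Biotin uptake and synthesis fell as a block. The vitamin is the cofactor of the carboxylases, among them acetyl-CoA carboxylase and pyruvate carboxylase. BIO2, the biotin synthase, which carries iron-sulfur clusters, read 262, 295 and 261 TPM in the controls and 22.6, 34.1 and 19.0 TPM with NaHS (log2 change -3.42, SE 0.22, adjusted p = 0.000355). BIO3 and BIO4, which act before it, read 60.5, 67.9 and 72.4 TPM in the controls and 7.62, 6.20 and 7.66 TPM with NaHS (log2 change -3.06), and 215, 222 and 188 TPM in the controls and 79.1, 79.5 and 43.0 TPM with NaHS (log2 change -1.67). The biotin transporter gene VHT1 read 149, 191 and 162 TPM in the controls and 22.3, 26.6 and 7.60 TPM with NaHS (log2 change -3.24). BIO5, which carries a biotin precursor into the cell and was among the genes not ranked, fell most of the block, from 98.7, 132 and 114 TPM in the controls to 5.05, 4.87 and 8.05 TPM with NaHS (log2 change -4.07). In each of these 5 genes every NaHS value lay below every control value. BPL1, which attaches biotin to the carboxylases, read 18.4, 18.2 and 17.9 TPM in the controls and 8.43, 10.1 and 4.38 TPM with NaHS (log2 change -1.21, not called without control 1, 2 or 3, adjusted p up to 0.056). Of the pyruvate carboxylase genes, PYC2 (-1.42) fell, while PYC1 read 358, 359 and 342 TPM in the controls and 433, 413 and 246 TPM with NaHS (log2 change 0.0006, not called, adjusted p = 0.998, but called without NaHS 3 at 0.26). In the whole list of thiamine, biotin, B6, riboflavin and pantothenate genes, 17 of 41 tested members fell, 12 of them under every scaling, and 1 rose (41.5% and 2.44%, median log2 change -0.58). Without control 1, 2 and 3, 11, 10 and 10 fell, respectively. Among all genes 28.5% fell and 10.1% rose. The thiamine thiazole enzyme THI4 (-1.57) fell, RIB1, the first enzyme of riboflavin synthesis, rose (0.89), and SNZ1, a vitamin B6 synthesis gene, read 1864, 1984 and 1627 TPM in the controls and 3470.1, 3641 and 2069 TPM with NaHS (log2 change 0.71, not called, adjusted p = 0.0539, but called without NaHS 3 at 0.97, and called with median-ratio scaling at 0.96, and called with upper-quartile scaling at 1.05).

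Of the lists with at least 10 tested genes, fatty acid synthesis had the largest share of fallen members, 64% against 28.5% of all genes. In it, 16 of 25 tested members fell, 15 of them under every scaling, and 1 rose (64% and 4%, median log2 change -1.11). ACC1, the acetyl-CoA carboxylase, read 10.2, 8.30 and 10.1 TPM in the controls and 2.97, 3.12 and 2.42 TPM with NaHS (log2 change -1.46). The fatty acid synthase subunit gene FAS2 read 57.0, 59.2 and 74.6 TPM in the controls and 8.32, 10.2 and 13.8 TPM with NaHS (log2 change -2.48, SE 0.2, adjusted p = 0.000558), and FAS1, the other subunit, read 16.7, 17.8 and 19.98 TPM in the controls and 3.54, 4.11 and 7.10 TPM with NaHS (log2 change -1.74). Neither pair of groups overlapped, and NaHS 3 was the highest NaHS library for both subunits. The elongase gene ELO2 (-1.64) and the desaturase gene OLE1 (-0.79) fell, whereas the elongase gene ELO3 read 6.90, 6.07 and 8.39 TPM in the controls and 4.56, 3.26 and 10.5 TPM with NaHS (log2 change -0.32, not called, adjusted p = 0.525, but called without NaHS 3 at -0.73). FAA4 (-2.11) and FAA2 (-1.94), which activate fatty acids with CoA, fell. FAA1, another activating enzyme, was the member that rose, from 147, 143 and 138 TPM in the controls to 175, 189 and 220.1 TPM with NaHS (log2 change 0.44, not called without control 1, 2 or 3 or NaHS 2, adjusted p up to 0.0941).

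The phospholipid list had 53.7% of members fallen, against 28.5% of all genes, and genes of inositol supply were among them. In the list, 22 of 41 tested members fell, 17 of them under every scaling, and 5 rose (53.7% and 12.2%, median log2 change -0.66). The risen members numbered 2, 1, 1 and 3 without control 1, 2 and 3 and NaHS 2. INO1, which makes inositol phosphate from glucose 6-phosphate, read 536, 476 and 525 TPM in the controls and 62.4, 65.8 and 97.4 TPM with NaHS (log2 change -2.78, SE 0.18, adjusted p = 0.000367). CHO1, the phosphatidylserine synthase, read 621, 608 and 634 TPM in the controls and 139.8, 163 and 162 TPM with NaHS (log2 change -2.001, SE 0.1, adjusted p = 0.000279). OPI3, a phospholipid methyltransferase, read 1304, 1213 and 1416 TPM in the controls and 543, 518 and 729 TPM with NaHS (log2 change -1.15), and ITR1, the inositol transporter, read 461, 421 and 482 TPM in the controls and 217, 227 and 204 TPM with NaHS (log2 change -1.07). All 4 kept their groups apart, and NaHS 3 did not stand apart in CHO1 or ITR1. The genes of the activators themselves rose: INO4 read 119, 118 and 110 TPM in the controls and 186, 166 and 275.2 TPM with NaHS (log2 change 0.82, not called without control 1, 2 or 3, adjusted p up to 0.0715) and INO2 read 24.8, 23.4 and 27.3 TPM in the controls and 31.6, 36.5 and 33.1 TPM with NaHS (log2 change 0.41, not called without control 1, 2 or 3 or NaHS 1 or 2, adjusted p up to 0.132). OPI1, the repressor of this branch, read 184, 166 and 166 TPM in the controls and 139, 155 and 100.1 TPM with NaHS (log2 change -0.41, not called, adjusted p = 0.113). AYR1, which makes lysophosphatidic acid, read 173, 176 and 174 TPM in the controls and 42.7, 45.5 and 46.3 TPM with NaHS (log2 change -1.94).

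The core of the inositol element, CATGTG, searched on both strands from 250 bases before to 50 bases after the coding start, was found in list members that were called and in none that were not. It was in 10 of 22 list members that fell, in 3 of 5 that rose and in 0 of 14 that were not called, against 6.91% of 5542 promoters of all tested genes. The list as a whole held it in 13 of 41 promoters (31.7%). Over all genes, list members included, the core did not track the calls: it was in 7.26% of all fallen and 7.56% of all risen genes' promoters. This motif was chosen after the values were seen. The members that hold it and fell, beside the 4 above, were PSD1 (-1.35), PSD2 (-0.66, not called under another scaling, not called without control 2 or 3, adjusted p up to 0.0707), CDS1 (-1.52), PGS1 (-0.91), CKI1 (-1.02) and CPT1 (-0.97), enzymes of phosphatidylethanolamine, CDP-diacylglycerol, phosphatidylglycerol and phosphatidylcholine synthesis. Those that rose were INO2, INO4 and the ethanolamine kinase gene EKI1 (0.85). The 4 promoters below, read 5′ to 3′ on the coding strand from R64, are shown as examples of fallen genes that hold the core, with CATGTG or its reverse complement in capitals.
INO1, minus strand, chrX:135884-136183: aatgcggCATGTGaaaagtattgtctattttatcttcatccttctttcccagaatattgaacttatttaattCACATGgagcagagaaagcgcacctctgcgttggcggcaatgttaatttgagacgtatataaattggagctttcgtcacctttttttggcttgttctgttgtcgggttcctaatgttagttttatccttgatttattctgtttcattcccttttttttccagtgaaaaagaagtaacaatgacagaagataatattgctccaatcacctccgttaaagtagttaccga
CHO1, minus strand, chrV:208425-208724: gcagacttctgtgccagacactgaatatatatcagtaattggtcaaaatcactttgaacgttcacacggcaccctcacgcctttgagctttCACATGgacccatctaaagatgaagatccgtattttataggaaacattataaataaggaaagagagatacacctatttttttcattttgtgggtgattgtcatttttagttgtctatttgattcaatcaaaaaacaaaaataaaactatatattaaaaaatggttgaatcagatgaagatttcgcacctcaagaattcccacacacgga
OPI3, minus strand, chrX:572886-573185: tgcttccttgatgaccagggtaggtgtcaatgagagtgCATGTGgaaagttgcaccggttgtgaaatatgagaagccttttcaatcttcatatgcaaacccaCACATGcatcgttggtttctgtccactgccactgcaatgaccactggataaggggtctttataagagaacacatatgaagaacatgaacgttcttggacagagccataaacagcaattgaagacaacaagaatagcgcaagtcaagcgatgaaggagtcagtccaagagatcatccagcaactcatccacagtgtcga
ITR1, minus strand, chrIV:1445418-1445717: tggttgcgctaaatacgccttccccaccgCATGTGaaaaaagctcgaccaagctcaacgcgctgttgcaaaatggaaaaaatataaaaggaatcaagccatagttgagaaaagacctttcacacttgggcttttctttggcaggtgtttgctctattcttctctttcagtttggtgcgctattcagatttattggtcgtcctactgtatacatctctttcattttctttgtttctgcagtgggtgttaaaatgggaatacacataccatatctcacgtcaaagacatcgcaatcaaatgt
INO1 and OPI3 held 2 copies each, and CHO1 and ITR1 held 1, all upstream of the coding start. A match is a description of the letters and shows no binding.

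**Figure D2:**
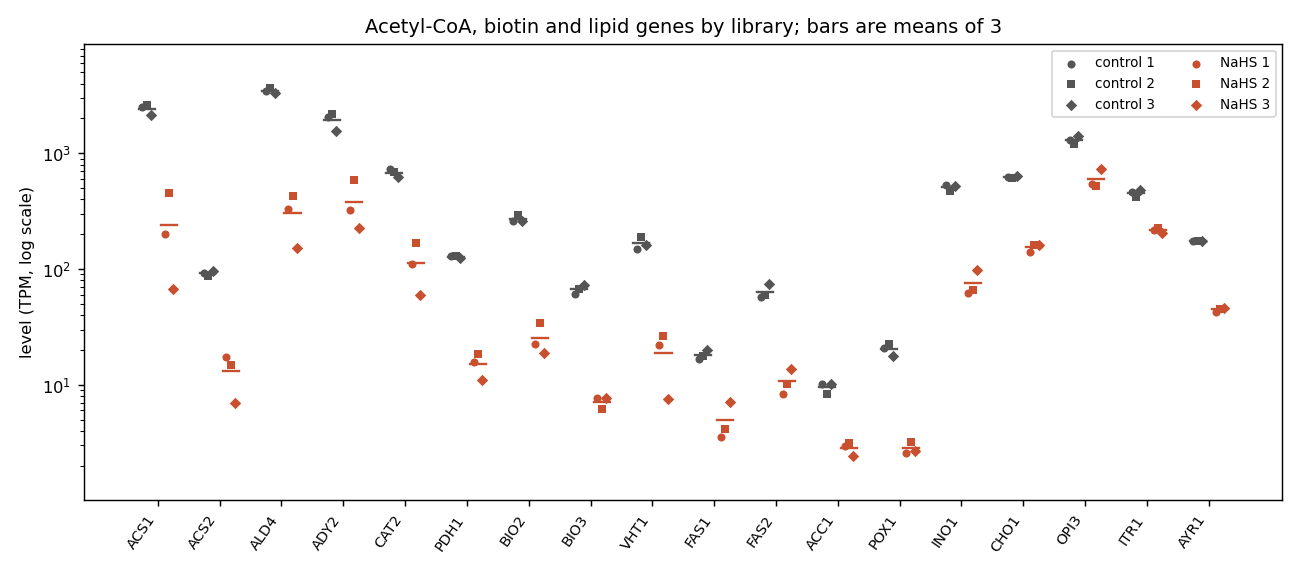
Level in TPM (vertical log axis) of acetyl-CoA, biotin and lipid genes in each library, controls in grey and NaHS in orange, with a bar at the mean of 3. The NaHS values lie below the control values for every gene shown, and NaHS 3 is the lowest point for ACS1, ACS2 and ALD4.

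The list of peroxisome assembly and fatty acid breakdown had 57.8% of members fallen, against 28.5% of all genes. Across the list, 26 of 45 tested members fell, 20 of them under every scaling, and 2 rose (57.8% and 4.44%, median log2 change -0.66). POX1, the acyl-CoA oxidase that opens beta-oxidation, read 20.9, 22.7 and 17.6 TPM in the controls and 2.59, 3.20 and 2.68 TPM with NaHS (log2 change -2.48, SE 0.15, adjusted p = 0.000349). TES1, a peroxisomal thioesterase, read 312, 321 and 276 TPM in the controls and 58.1, 65.7 and 47.8 TPM with NaHS (log2 change -2.39), and POT1, the thiolase, read 284, 285 and 221 TPM in the controls and 46.3, 60.3 and 50.4 TPM with NaHS (log2 change -2.31). The groups were apart and the 3 NaHS libraries close together in these genes. PEX11, which divides peroxisomes, read 423, 436 and 397 TPM in the controls and 182, 193 and 168 TPM with NaHS (log2 change -1.21). PEX15 (0.52) and PEX28 (0.61), assembly factors, rose, and SPS19, an auxiliary enzyme of beta-oxidation, read 345, 334 and 304 TPM in the controls and 360.4, 336 and 384 TPM with NaHS (log2 change 0.14, not called, adjusted p = 0.334, and called with median-ratio scaling at 0.40, and called with upper-quartile scaling at 0.48). ADR1, an activator of these genes, read 24.9, 20.5 and 20.7 TPM in the controls and 20.5, 26.5 and 44.5 TPM with NaHS (log2 change 0.38, not called, adjusted p = 0.308), with NaHS 3 above all other libraries. In the sphingolipid list, 11 of 32 tested members fell, 8 of them under every scaling, and 3 rose (34.4% and 9.38%, median log2 change -0.17, 0.081 with median-ratio scaling). TSC13, which ends each round of elongation, fell (-1.14), and SCS7, the fatty acid hydroxylase, rose (0.91). Its 3 NaHS values, 910.5, 835 and 1036 TPM, lay above all controls.

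With the deposited values, the glycosylation, actin and cell wall lists had larger shares of falls than all genes (28.5%), and the vesicle list a smaller one. Under every scaling the vesicle share was larger too, 12 of 64 members against 16.0% of all genes. Of the genes for entry to the endoplasmic reticulum, glycosylation and quality control, 30 of 62 tested members fell, 15 of them under every scaling, and 2 rose (48.4% and 3.23%, median log2 change -0.56). ALG1, a mannosyltransferase that builds the sugar precursor, read 22.1, 25.3 and 28.4 TPM in the controls and 8.88, 8.78 and 8.30 TPM with NaHS (log2 change -1.44), and PMT4, which mannosylates serine and threonine, read 45.5, 43.1 and 48.3 TPM in the controls and 17.7, 16.0 and 11.3 TPM with NaHS (log2 change -1.56). Both kept the groups apart. Among vesicle coats, tethers and SNAREs, 16 of 64 tested members fell, 12 of them under every scaling, and 4 rose (25% and 6.25%, median log2 change -0.12, 0.12 with median-ratio scaling). There were 9, 10 and 10 fallen without control 1, 2 and 3. Fits without control 1, 2 and 3 had 2, 2 and 2 risen. YPT31, a Rab GTPase of the Golgi, fell (-1.69), while SNC2, a plasma membrane v-SNARE, rose (0.99). For actin and endocytosis, 20 of 43 tested members fell, 12 of them under every scaling, and 2 rose (46.5% and 4.65%, median log2 change -0.37). Leaving out control 1 and 2 gave 12 and 13 fallen. ABP1, an activator of actin branching, read 135, 130.2 and 126 TPM in the controls and 48.6, 47.2 and 44.3 TPM with NaHS (log2 change -1.46). AIP1, a cofactor of filament disassembly, read 85.9, 84.5 and 85.4 TPM in the controls and 27.6, 28.3 and 29.5 TPM with NaHS (log2 change -1.55), and actin itself, ACT1, read 993, 1019 and 1033 TPM in the controls and 688, 685 and 839 TPM with NaHS (log2 change -0.47, not called under another scaling, not called without control 1, 2 or 3 or NaHS 1 or 2, adjusted p up to 0.0811). RVS161, which bends membrane at endocytic sites, went the other way, from 63.7, 56.2 and 68.8 TPM in the controls to 142, 142 and 319.6 TPM with NaHS (log2 change 1.55, not called without control 2, adjusted p up to 0.051), with NaHS 3 the highest.

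Wall proteins held some of the largest falls, where 28.5% of all genes fell and 10.1% rose. In the list of GPI and PIR wall proteins and flocculins, 18 of 38 tested members fell, 12 of them under every scaling, and 4 rose (47.4% and 10.5%, median log2 change -0.65). As fallen, 8 members counted without control 3. CWP1, a wall mannoprotein, read 599, 532 and 865 TPM in the controls and 86.6, 131 and 16.4 TPM with NaHS (log2 change -3.48, not called without control 3, adjusted p up to 0.0514). YPS1, a surface aspartic protease, read 335, 328 and 342 TPM in the controls and 47.1, 55.3 and 31.6 TPM with NaHS (log2 change -2.91, SE 0.21, adjusted p = 0.000417). The NaHS libraries stayed together for YPS1 and spread widely for CWP1. CCW22, the most abundant gene called lower outside the left-aside pathways and a relative of the wall gene CCW12 with which reads may be shared, read 14839, 15422 and 13915 TPM in the controls and 6249, 6466 and 2004 TPM with NaHS (log2 change -1.77, not called without control 1, 2 or 3, adjusted p up to 0.0765). The wall stress sensor MID2 rose, from 125, 126 and 119.5 TPM in the controls to 233, 223 and 176 TPM with NaHS (log2 change 0.76), and SED1, a main wall protein of resting cells, read 2363, 2427 and 2824 TPM in the controls and 2689, 2742 and 1242 TPM with NaHS (log2 change -0.27, not called, adjusted p = 0.518). Among wall glucan, chitin and mannan enzymes, 19 of 50 tested members fell, 10 of them under every scaling, and 4 rose (38% and 8%, median log2 change -0.38). The fallen members numbered 11, 10 and 11 without control 1, 2 and 3. There were 1, 1, 1 and 8 risen without control 1, 2 and 3 and NaHS 3. GAS5, a glucan remodelling enzyme, fell (-1.70), and CHS1, a chitin synthase, read 11.8, 12.4 and 12.9 TPM in the controls and 24.3, 24 and 51.5 TPM with NaHS (log2 change 1.27, not called without control 1, 2 or 3, adjusted p up to 0.0646).

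The lists of amino acid permeases, branched-chain synthesis and aromatic synthesis had 39.4% to 58.3% of members fallen, against 28.5% of all genes. Of the permeases and their regulators, 13 of 33 tested members fell, 13 of them under every scaling, and 3 rose (39.4% and 9.09%, median log2 change -0.83). There were 21 fallen without NaHS 3. AGP3, a broad permease, read 134, 129 and 127 TPM in the controls and 22.8, 38.5 and 14.6 TPM with NaHS (log2 change -2.42). SAM3, the S-adenosylmethionine permease, read 187, 189 and 189 TPM in the controls and 56.3, 71.8 and 28.6 TPM with NaHS (log2 change -1.93), and CAN1, the arginine permease, read 165, 157 and 165 TPM in the controls and 71.4, 66.0 and 48.6 TPM with NaHS (log2 change -1.39). Their groups did not overlap. The 3 members that rose were STP4 (1.305), STP2 (0.72) and STP1 (0.56, not called without control 2, adjusted p up to 0.0623), of which STP1 and STP2 are the factors that switch permease genes on. LEU4, the first enzyme of leucine synthesis, read 3184, 3078 and 3140.1 TPM in the controls and 1349, 1531 and 1074 TPM with NaHS (log2 change -1.26). ILV3, the dihydroxyacid dehydratase, an iron-sulfur enzyme, read 1259.6, 1246 and 1444 TPM in the controls and 654, 597 and 339.7 TPM with NaHS (log2 change -1.36). In the branched-chain list, 7 of 12 tested members fell, 6 of them under every scaling, and 1 rose (58.3% and 8.33%, median log2 change -0.66), and in the aromatic list, 8 of 17 tested members fell, 6 of them under every scaling, and 1 rose (47.1% and 5.88%, median log2 change -0.64). ARO8, an aromatic aminotransferase, read 421, 433 and 391 TPM in the controls and 148, 143 and 155 TPM with NaHS (log2 change -1.48), whereas ARO3, the first enzyme of the pathway, read 748, 764 and 725 TPM in the controls and 1206, 1159.5 and 1602 TPM with NaHS (log2 change 0.81). PRO3, the last enzyme of proline synthesis, read 192, 183 and 204 TPM in the controls and 47.7, 45.5 and 41.4 TPM with NaHS (log2 change -2.08, SE 0.11, adjusted p = 0.000279). Its list, of lysine, histidine and proline synthesis, was near the share of all genes. There 6 of 20 tested members fell, 2 of them under every scaling, and 2 rose (30% and 10%, median log2 change 0.094). For serine, glycine, threonine and one-carbon genes, 7 of 25 fell, 3 of them under every scaling, and 2 rose (28% and 8%, median log2 change -0.48). Without NaHS 3, 12 of these fell.

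Nitrogen metabolism moved in several directions, where 28.5% of all genes fell and 10.1% rose. AAT2, the cytosolic aspartate aminotransferase, read 821, 848 and 852 TPM in the controls and 197, 192 and 116 TPM with NaHS (log2 change -2.35), and UGA1 (-2.01) and GAD1 (-1.98), of the GABA shunt, fell. GDH3, a glutamate dehydrogenase made in respiring cells, read 1603, 1628 and 1670.2 TPM in the controls and 597, 575 and 312 TPM with NaHS (log2 change -1.78). The asparagine synthetase gene ASN1 rose, from 98.7, 104 and 117 TPM in the controls to 230.2, 208 and 233 TPM with NaHS (log2 change 1.07). In the arginine and polyamine list, 7 of 21 tested members fell, 5 of them under every scaling, and 4 rose (33.3% and 19%, median log2 change -0.27). Fits without NaHS 3 had 7 risen. ARG3 (-1.25) and ARG1 (-0.91) fell, while CPA1, a subunit of carbamoyl phosphate synthetase, read 573, 572 and 529 TPM in the controls and 1057, 993 and 1848 TPM with NaHS (log2 change 1.16). No control value of CPA1 reached the NaHS values, and NaHS 3 was the highest. OAZ1, the antizyme that turns down polyamine synthesis, rose (0.99), and the spermidine synthase gene SPE3 fell (-1.03).

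In a set of nitrogen and glycolytic genes, NaHS 3 lay far below the other NaHS libraries. GDH1, the main glutamate dehydrogenase for synthesis, read 555, 661 and 613 TPM in the controls and 402, 353 and 41.1 TPM with NaHS (log2 change -1.75, not called, adjusted p = 0.147, but called without NaHS 3 at -0.69). CAR2, an arginine breakdown enzyme, read 292, 314 and 279.6 TPM in the controls and 265, 246 and 25.7 TPM with NaHS (log2 change -1.29, not called, adjusted p = 0.273), and CAR1, the arginase, read 259.9, 296 and 276 TPM in the controls and 339, 329 and 57.5 TPM with NaHS (log2 change -0.57, not called, adjusted p = 0.527, but called without NaHS 3 at 0.27). For CAR1 the NaHS 1 and NaHS 2 values lay above all controls and NaHS 3 far below them. AGP1, an amino acid permease, read 1091, 1095 and 1090.5 TPM in the controls and 889, 908 and 142 TPM with NaHS (log2 change -1.16, not called, adjusted p = 0.229, but called without NaHS 3 at -0.28), and GLN1, glutamine synthetase, read 430.4, 436 and 431 TPM in the controls and 645, 789 and 152 TPM with NaHS (log2 change -0.021, not called, adjusted p = 0.982, but called without NaHS 3 at 0.72). NaHS 3 was also far below the others in ILV5, the acetohydroxyacid reductoisomerase, at 879, 939.7 and 1135 TPM in the controls and 1024, 1282 and 226 TPM with NaHS (log2 change -0.55, not called, adjusted p = 0.516), and in SHM2, a serine hydroxymethyltransferase, at 298, 315 and 339 TPM in the controls and 274, 272 and 52.2 TPM with NaHS (log2 change -1.002, not called, adjusted p = 0.247, but called without NaHS 3 at -0.21). Among glycolytic genes, the enolase gene ENO1 read 738, 730.4 and 919 TPM in the controls and 1305, 1294 and 144 TPM with NaHS (log2 change -0.34, not called, adjusted p = 0.776, but called without NaHS 3 at 0.71), and its near copy ENO2 read 66.3, 74.9 and 69.9 TPM in the controls and 73.6, 76.8 and 67.2 TPM with NaHS (log2 change 0.043, not called, adjusted p = 0.777, and called with upper-quartile scaling at 0.38). ZRT1, the high-affinity zinc transporter, read 208, 251 and 323 TPM in the controls and 774, 497 and 115.2 TPM with NaHS (log2 change 0.47, not called, adjusted p = 0.613, but called without NaHS 3 at 1.27). Of the genes with a mean of at least 10 TPM, NaHS 3 lay more than 1 log2 unit below its group at 12 of 31 amino acid permease members, 10 of 22 metal transport members, 8 of 22 glycolytic members and 7 of 22 purine members, and above it at none. What sets NaHS 3 apart was not tested.

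**Figure D3:**
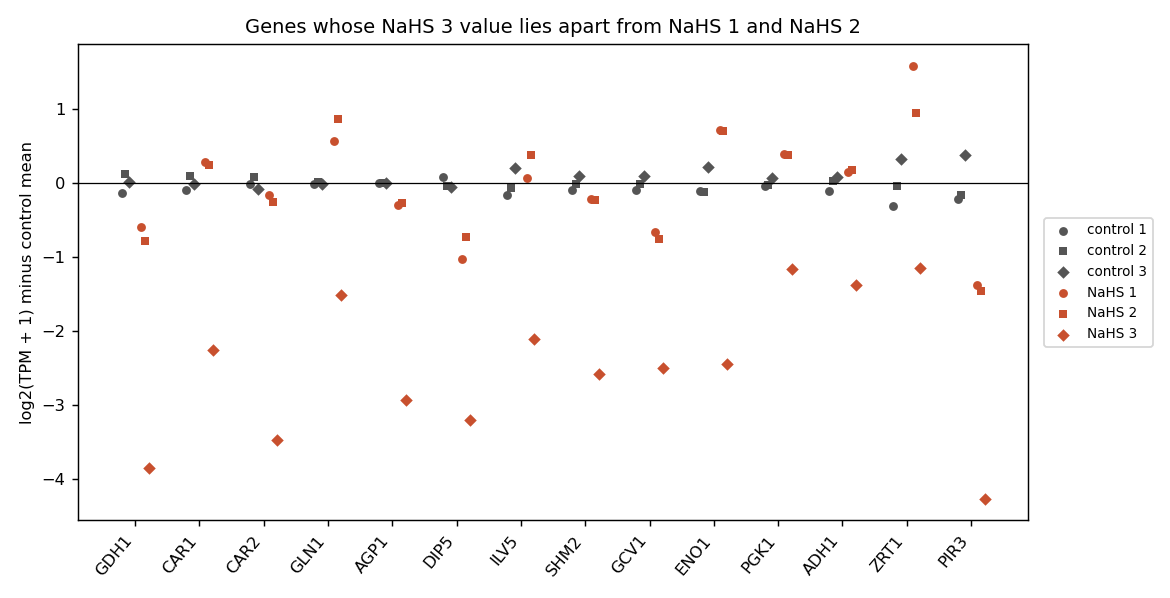
Log2(TPM + 1) of each library minus the control mean (vertical axis) for 14 genes chosen after their values were seen, controls in grey and NaHS in orange. NaHS 3 lies below the other NaHS libraries in each, and for CAR1, GLN1, ILV5, ENO1, PGK1, ADH1 and ZRT1 NaHS 1 and NaHS 2 lie above the control mean.

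With the deposited values, purine synthesis and the synthesis of NAD, heme and quinones had larger shares of falls than all genes (28.5%), and pyrimidine genes did not. Under every scaling the pyrimidine share was larger too, 3 of 15 members against 16.0% of all genes, beside 5 of 24 purine members. Among purine genes, 9 of 24 tested members fell, 5 of them under every scaling, and 0 rose (37.5% and 0%, median log2 change -0.64). As fallen, 5, 5 and 15 members counted without control 1 and 2 and NaHS 3. ADE17, which closes the purine ring, read 56.4, 66.4 and 65.9 TPM in the controls and 12.4, 13.2 and 8.13 TPM with NaHS (log2 change -2.41), and AAH1, an adenine deaminase, read 17.1, 22.8 and 25.6 TPM in the controls and 6.70, 4.46 and 2.74 TPM with NaHS (log2 change -2.06). Their groups did not overlap. For pyrimidine synthesis and salvage, 4 of 15 tested members fell, 3 of them under every scaling, and 1 rose (26.7% and 6.67%, median log2 change -0.072, 0.19 with median-ratio scaling). FCY1, the cytosine deaminase of pyrimidine salvage, rose, from 868, 860.0 and 830.3 TPM in the controls to 1573, 1448 and 2317 TPM with NaHS (log2 change 1.03). For NAD, heme and quinone synthesis, 16 of 30 tested members fell, 11 of them under every scaling, and 2 rose (53.3% and 6.67%, median log2 change -0.65). As fallen, 10, 10 and 10 members counted without control 1, 2 and 3. HEM15, ferrochelatase, which puts iron into heme, read 145, 147 and 149.8 TPM in the controls and 27.0, 30.9 and 38.0 TPM with NaHS (log2 change -2.18, SE 0.14, adjusted p = 0.000361). The nicotinic acid transporter gene TNA1 read 273, 287 and 262 TPM in the controls and 93.4, 99.2 and 28.8 TPM with NaHS (log2 change -2.07, not called without control 1, 2 or 3, adjusted p up to 0.0553). BNA1, an oxygen-using enzyme of NAD synthesis, read 259, 251 and 242 TPM in the controls and 428, 418 and 845 TPM with NaHS (log2 change 1.08, not called without control 1, 2 or 3, adjusted p up to 0.0805), and HEM13, an oxygen-using heme enzyme, read 55.2, 49.2 and 51.4 TPM in the controls and 91.9, 74.7 and 64.2 TPM with NaHS (log2 change 0.54, not called without control 1, 2 or 3 or NaHS 1 or 2, adjusted p up to 0.113).

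Sugar transport changed gene by gene, in lists to be set beside 28.5% fallen and 10.1% risen among all genes. In the list of hexose transporters and glucose signalling, 5 of 30 tested members fell, 5 of them under every scaling, and 5 rose (16.7% and 16.7%, median log2 change -0.28). Without NaHS 3, 14 fell. There were 3, 3 and 3 risen without control 1, 2 and 3. HXT5, a transporter of slow-growing cells, read 1505, 1497 and 1378 TPM in the controls and 283, 397 and 310.1 TPM with NaHS (log2 change -2.16, SE 0.15, adjusted p = 0.000367). HXT4 (log2 change 1.24) went from 57.4, 56.1 and 56.0 TPM in the controls to 124, 103 and 193 TPM with NaHS, and HXT3 read 95.2, 88.6 and 84.9 TPM in the controls and 179.9, 158 and 456 TPM with NaHS (log2 change 1.38, not called without control 1, 2 or 3, adjusted p up to 0.101). HXT2 read 105.1, 141 and 86.2 TPM in the controls and 53.6, 53.1 and 192 TPM with NaHS, so that NaHS 3 lay above and the other NaHS libraries below the controls (log2 change -0.40, not called, adjusted p = 0.568, but called without NaHS 3 at -1.0098). The near-identical HXT6 and HXT7 read 1603, 1440.5 and 1804 TPM in the controls and 5852, 4284 and 2157 TPM with NaHS (log2 change 1.23, not called without control 1, 2 or 3 or NaHS 1 or 2, adjusted p up to 0.11), and 2979, 3049 and 2893 TPM in the controls and 7540.1, 5971 and 2691 TPM with NaHS (log2 change 0.73, not called, adjusted p = 0.157, but called without NaHS 3 at 1.17, and called with upper-quartile scaling at 1.08), and reads may have been shared between them. MTH1, a repressor of HXT genes, read 83.2, 78.3 and 87.0 TPM in the controls and 184, 184 and 382 TPM with NaHS (log2 change 1.495), and SKS1, a kinase involved in the adaptation to low glucose, read 7.41, 7.57 and 7.65 TPM in the controls and 35.5, 26.0 and 29.0 TPM with NaHS (log2 change 1.86, SE 0.14, adjusted p = 0.000519). Among glycolytic genes, 7 of 23 tested members fell, 4 of them under every scaling, and 1 rose (30.4% and 4.35%, median log2 change -0.51), and 6 rose without NaHS 3. The pyruvate decarboxylase gene PDC1 read 1659, 1829 and 1583 TPM in the controls and 585, 500.3 and 828 TPM with NaHS (log2 change -1.43), PDC6 read 20.1, 18.3 and 25.6 TPM in the controls and 4.23, 5.15 and 4.62 TPM with NaHS (log2 change -1.97), and PFK27, which makes an activator of glycolysis, read 26.1, 26.0 and 27.2 TPM in the controls and 57.1, 53.3 and 104 TPM with NaHS (log2 change 1.34). GAL3, the sensor of galactose, fell (-1.98), as did PGM2, the main phosphoglucomutase (-1.16).

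Several of the lists in which more members rose than fell belonged to gene expression. For RNA polymerase II, Mediator and general factors, 7 of 63 tested members fell, 3 of them under every scaling, and 14 rose (11.1% and 22.2%, median log2 change 0.12), against 10.1% risen and 28.5% fallen among all genes. There were 4, 4 and 4 fallen without control 1, 2 and 3. Fits without control 2 and 3 had 8 and 9 risen. SPT15, the TATA-binding protein, read 59.6, 51.0 and 54.2 TPM in the controls and 112, 114 and 144 TPM with NaHS (log2 change 1.15, SE 0.14, adjusted p = 0.00184). CSE2, a Mediator subunit, read 54.3, 37.2 and 41.8 TPM in the controls and 88.4, 89.7 and 101 TPM with NaHS (log2 change 1.07), and ROX3, another, read 246, 268 and 232 TPM in the controls and 427, 416 and 872 TPM with NaHS (log2 change 1.11, not called without control 1, 2 or 3, adjusted p up to 0.0896). In all 3 the groups were apart. TAF8, a TFIID subunit, fell (-0.98). Among splicing factors, 10 of 53 tested members fell, 5 of them under every scaling, and 12 rose (18.9% and 22.6%, median log2 change 0.046). As fallen, 3, 5 and 6 members counted without control 1, 2 and 3. As risen, 7, 6 and 7 members counted without control 2 and 3 and NaHS 1. Splicing rises thus equalled falls without control 3, with 6 of each, and were fewer without NaHS 1, with 7 against 8. PRP46, a spliceosome protein, read 26.4, 27.5 and 29.3 TPM in the controls and 71.2, 81.0 and 69.5 TPM with NaHS (log2 change 1.38, SE 0.11, adjusted p = 0.000558), and SNU13, shared by the spliceosome and small nucleolar particles, read 50.3, 51.8 and 63.0 TPM in the controls and 136, 109 and 166 TPM with NaHS (log2 change 1.29). ECM2, also of the spliceosome, read 16.4, 12.8 and 13.8 TPM in the controls and 40.7, 41.7 and 69.1 TPM with NaHS (log2 change 1.71). Chromatin remodelling followed: 4 of 57 tested members fell, 3 of them under every scaling, and 8 rose (7.02% and 14%, median log2 change -0.073, 0.17 with median-ratio scaling). Without NaHS 3, 9 fell. As risen, 4, 4 and 4 members counted without control 1, 2 and 3. ESA1, an essential histone acetyltransferase, rose (1.11), and NHP6A, a DNA-bending protein, fell (-0.89).

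The ribosome assembly genes MRT4 and YAR1 were among the 15 largest ranked rises, and the members of the polymerase I and III list that rose did so by less. Over all genes the shares were 28.5% fallen and 10.1% risen. In the polymerase list, 3 of 39 tested members fell, 1 of them under every scaling, and 6 rose (7.69% and 15.4%, median log2 change 0.067). As fallen, 1, 1, 1 and 7 members counted without control 1, 2 and 3 and NaHS 3. As risen, 3 and 2 members counted without control 1 and 2. RPC82, a polymerase III subunit, read 10.3, 8.06 and 8.77 TPM in the controls and 28.1, 22.6 and 18.7 TPM with NaHS (log2 change 1.25, SE 0.18, adjusted p = 0.00317). MRT4, which assembles the ribosomal stalk, read 9.38, 8.06 and 8.92 TPM in the controls and 32.1, 28.7 and 42.1 TPM with NaHS (log2 change 1.83, SE 0.17, adjusted p = 0.000742), and YAR1, a chaperone of the ribosomal protein Rps3, read 13.9, 12.2 and 14.6 TPM in the controls and 49.9, 58.1 and 53.9 TPM with NaHS (log2 change 1.92, SE 0.12, adjusted p = 0.000355). Each NaHS value lay above every control value. The PAC core GCGATGAG, an element of ribosome assembly and polymerase genes, was in 8.08% of 569 promoters of genes called higher, in 2.26% of 1640 called lower and in 3.86% of all 5542. It was in 10.4% of the 134 promoters of genes that rose by at least 1 log2 unit. The promoters of MRT4 and RPC82 are printed because they hold it, with the match in capitals, and the YAR1 window did not hold these letters.
MRT4, plus strand, chrXI:425992-426291: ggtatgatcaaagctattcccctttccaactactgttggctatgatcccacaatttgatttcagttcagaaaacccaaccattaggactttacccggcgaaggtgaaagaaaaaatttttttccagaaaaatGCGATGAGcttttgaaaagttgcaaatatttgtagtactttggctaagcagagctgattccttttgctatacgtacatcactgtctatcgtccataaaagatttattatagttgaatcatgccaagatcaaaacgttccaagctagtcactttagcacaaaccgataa
RPC82, minus strand, chrXVI:918992-919291: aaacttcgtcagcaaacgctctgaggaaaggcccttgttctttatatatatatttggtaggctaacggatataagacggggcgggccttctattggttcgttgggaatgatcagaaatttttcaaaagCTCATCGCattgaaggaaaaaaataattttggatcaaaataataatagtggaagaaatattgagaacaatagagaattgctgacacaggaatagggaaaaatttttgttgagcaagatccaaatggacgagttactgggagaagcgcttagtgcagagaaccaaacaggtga

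**Figure D4:**
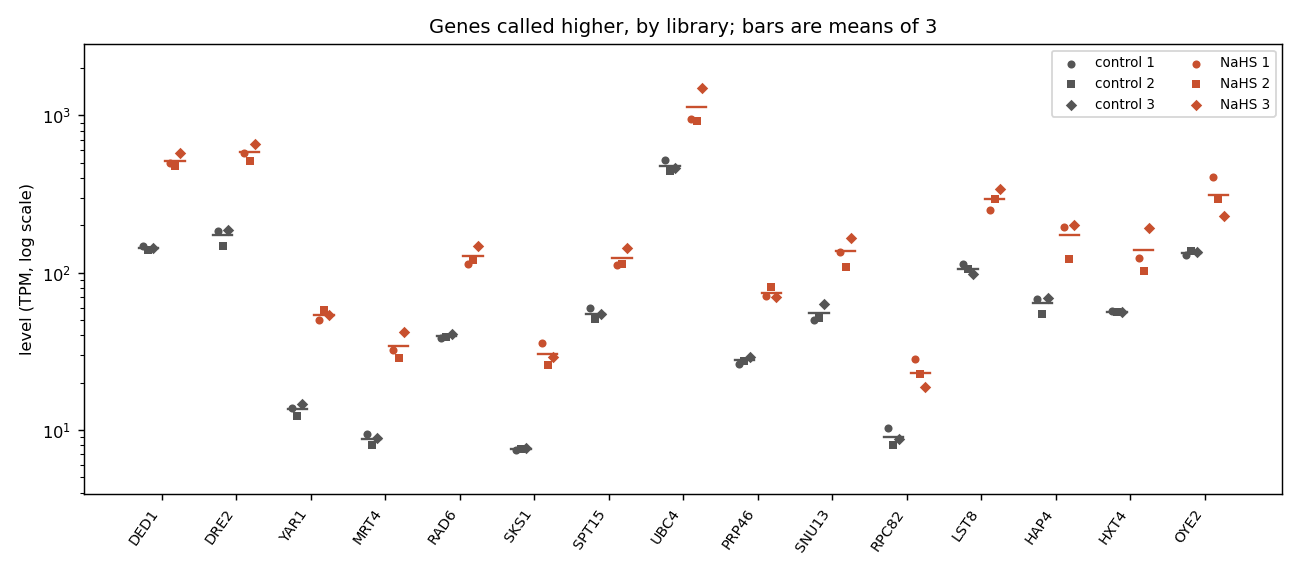
Level in TPM (vertical log axis) of 15 genes called higher in each library, controls in grey and NaHS in orange, with a bar at the mean of 3. The NaHS values lie above all control values for every gene shown.

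Translation factors went in both directions, with a share of falls near the 28.5% of all genes, of which 10.1% rose. In this list, 14 of 49 tested members fell, 6 of them under every scaling, and 9 rose (28.6% and 18.4%, median log2 change -0.13, 0.10 with median-ratio scaling). As fallen, 7, 8, 6 and 9 members counted without control 1, 2 and 3 and NaHS 2. As risen, 4 and 3 members counted without control 1 and 2. DED1, an RNA helicase of translation initiation, read 147, 140.1 and 144 TPM in the controls and 494, 478 and 574 TPM with NaHS (log2 change 1.83, SE 0.11, adjusted p = 0.000349). The elongation factor 2 genes EFT1 and EFT2 encode the same protein and read 306, 308 and 369 TPM in the controls and 94.0, 80.8 and 75.2 TPM with NaHS (log2 change -1.96), and 624, 628 and 732 TPM in the controls and 202, 186 and 206 TPM with NaHS (log2 change -1.73), with reads possibly shared. TIF1, the initiation factor 4A helicase, read 114.7, 113 and 138 TPM in the controls and 39.8, 41.5 and 39.0 TPM with NaHS (log2 change -1.58). The near-identical elongation factor 1 alpha genes TEF2 and TEF1 read 7599.9, 7712 and 8352 TPM in the controls and 13835, 13198 and 13784 TPM with NaHS (log2 change 0.79), and 6806, 7214 and 7379 TPM in the controls and 5848, 5043 and 3793 TPM with NaHS (log2 change -0.56, not called under another scaling, not called without control 1, 2 or 3 or NaHS 2, adjusted p up to 0.124), so their division between copies is uncertain. GCN4, the activator of amino acid synthesis genes, read 394, 387 and 449 TPM in the controls and 618, 571 and 854 TPM with NaHS (log2 change 0.71, not called without control 1 or 2, adjusted p up to 0.0775). Among aminoacyl-tRNA synthetases, 5 of 22 tested members fell, 4 of them under every scaling, and 0 rose (22.7% and 0%, median log2 change -0.25), with ARC1, a cofactor of these enzymes, at 78.5, 69.9 and 93.5 TPM in the controls and 20.1, 22.5 and 25.4 TPM with NaHS (log2 change -1.78). Without NaHS 3, 11 fell.

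The ubiquitin list held about as many rises as falls, against 10.1% risen and 28.5% fallen among all genes. In it, 14 of 65 tested members fell, 3 of them under every scaling, and 15 rose (21.5% and 23.1%, median log2 change 0.014). There were 4, 5, 5 and 7 fallen without control 1, 2 and 3 and NaHS 1. There were 8, 7 and 8 risen without control 1, 2 and 3. RAD6, a ubiquitin-conjugating enzyme of DNA repair and protein turnover, read 38.4, 38.7 and 40.9 TPM in the controls and 114, 121 and 149 TPM with NaHS (log2 change 1.67, SE 0.13, adjusted p = 0.000528). UBC4, the conjugating enzyme for short-lived and abnormal proteins, read 523, 441 and 466 TPM in the controls and 954, 924 and 1502 TPM with NaHS (log2 change 1.21), and CDC34, which drives the G1 to S transition, read 36.5, 30.4 and 26.1 TPM in the controls and 62.3, 60.9 and 84.1 TPM with NaHS (log2 change 1.13). Each kept the groups apart. UBA1, the activating enzyme at the head of the pathway, fell, from 28.8, 27.6 and 28.2 TPM in the controls to 9.49, 10.8 and 13.1 TPM with NaHS (log2 change -1.28). In the autophagy list, 9 of 36 tested members fell, 4 of them under every scaling, and 4 rose (25% and 11.1%, median log2 change -0.27). As fallen, 4, 3, 5 and 16 members counted without control 1, 2 and 3 and NaHS 3. As risen, 2 members counted without control 1. ATG8, which builds the autophagosome membrane, read 349.6, 400.2 and 382 TPM in the controls and 514, 535 and 660.2 TPM with NaHS (log2 change 0.59, not called without control 1 or 3, adjusted p up to 0.0655), while ATG7, the enzyme that activates it, fell (-1.06).

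In the cell cycle and DNA replication lists 32.4% and 34.1% of members fell, against 28.5% of all genes, and in the DNA repair list 19.6%. Under every scaling the replication share was smaller than that of all genes, 6 of 41 members against 16.0%. The cell cycle list then had 6 of 34, near that share. Among cyclins, inhibitors and cell cycle regulators, 11 of 34 tested members fell, 6 of them under every scaling, and 2 rose (32.4% and 5.88%, median log2 change -0.25). As fallen, 7, 7 and 7 members counted without control 1, 2 and 3. CLN1, a G1 cyclin, read 3.17, 2.64 and 2.43 TPM in the controls and 0.71, 1.22 and 1.26 TPM with NaHS (log2 change -0.87), and CLN2 fell with it (-0.80). SIC1, the inhibitor that holds cells in G1, read 231, 208 and 220.0 TPM in the controls and 228, 243 and 243 TPM with NaHS (log2 change 0.12, not called, adjusted p = 0.366, and called with median-ratio scaling at 0.37, and called with upper-quartile scaling at 0.46). The repressors YOX1 (-2.10) and YHP1 (-1.22) fell, and MCM1, the factor they act with, rose, from 107, 83.4 and 85.04 TPM in the controls to 199, 199 and 271 TPM with NaHS (log2 change 1.27). The groups of MCM1 did not overlap. For ribonucleotide reductase and DNA repair, 9 of 46 tested members fell, 5 of them under every scaling, and 6 rose (19.6% and 13%, median log2 change -0.16, 0.011 with median-ratio scaling). As fallen, 4, 5, 4 and 15 members counted without control 1, 2 and 3 and NaHS 3. There were 10 risen without NaHS 3. RAD16, of nucleotide excision repair, rose (0.83), and RAD52, of recombination, fell (-1.13). The ribonucleotide reductase genes RNR2 and RNR4 read 343, 365 and 312 TPM in the controls and 178, 170.3 and 118 TPM with NaHS (log2 change -1.14), and 246, 262 and 278 TPM in the controls and 121, 114 and 154 TPM with NaHS (log2 change -1.02). In DNA replication, 14 of 41 tested members fell, 6 of them under every scaling, and 2 rose (34.1% and 4.88%, median log2 change -0.25). There were 8, 8 and 9 fallen without control 1, 2 and 3. ASH1, a repressor kept to daughter cells, read 27.9, 31.4 and 31.8 TPM in the controls and 6.20, 6.75 and 2.67 TPM with NaHS (log2 change -2.41). SIR2, the silencing deacetylase, read 13.5, 13.6 and 14.3 TPM in the controls and 3.60, 3.60 and 2.40 TPM with NaHS (log2 change -1.83).

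Mitochondrial lists held movement both ways, beside 28.5% fallen and 10.1% risen among all genes. The import list was near these shares. Among carriers and fission or fusion genes, 14 of 39 tested members fell, 6 of them under every scaling, and 8 rose (35.9% and 20.5%, median log2 change -0.31). As fallen, 8, 7 and 9 members counted without control 1, 2 and 3. As risen, 2, 2, 2, 4 and 4 members counted without control 1, 2 and 3 and NaHS 1 and 2. DIC1, the dicarboxylate carrier, read 96.1, 96.5 and 88.8 TPM in the controls and 24.5, 24.4 and 29.9 TPM with NaHS (log2 change -1.80, SE 0.12, adjusted p = 0.000367), and SFC1, which exchanges succinate for fumarate, read 216, 179 and 167 TPM in the controls and 54.1, 78.5 and 38.1 TPM with NaHS (log2 change -1.75). The subunits of the pyruvate carrier parted: MPC1 read 233, 232 and 214 TPM in the controls and 96.7, 99.8 and 67.3 TPM with NaHS (log2 change -1.37), and MPC2 read 3089.6, 3522 and 3046 TPM in the controls and 4741, 4539 and 7903 TPM with NaHS (log2 change 0.79, not called without control 1, 2 or 3, adjusted p up to 0.112). MPC3, the partner used in respiration, read 4522, 4659 and 4078 TPM in the controls and 2986, 3156 and 2526 TPM with NaHS (log2 change -0.62, not called under another scaling, not called without control 2, adjusted p up to 0.0527). OM14, an outer membrane protein that receives ribosomes, read 5799, 5780.0 and 5381 TPM in the controls and 2482, 2840.0 and 1674 TPM with NaHS (log2 change -1.31). For import and processing, 15 of 48 tested members fell, 9 of them under every scaling, and 5 rose (31.2% and 10.4%, median log2 change -0.37). As fallen, 9 and 7 members counted without control 1 and 2. There were 2, 2, 2 and 8 risen without control 1, 2 and 3 and NaHS 3. TOM40, the import pore, fell (-1.22). DRE2, needed for iron-sulfur proteins of the cytosol, rose, from 183, 147 and 188 TPM in the controls to 579, 513 and 657 TPM with NaHS (log2 change 1.75, SE 0.15, adjusted p = 0.000582). Genes of the mitochondrial genome were listed at or near 0, COX1 at 0.25 TPM or less, and were not read as absent.

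Defence against peroxides, aldehydes and quinones had a larger share of falls than all genes (28.5%). In it, 24 of 41 tested members fell, 16 of them under every scaling, and 3 rose (58.5% and 7.32%, median log2 change -0.66). SOD2, the mitochondrial superoxide dismutase, read 2064, 1943 and 1956 TPM in the controls and 993, 981 and 852 TPM with NaHS (log2 change -1.08). SRX1, which repairs oxidised peroxiredoxin, read 193, 202 and 187 TPM in the controls and 100.1, 96.6 and 84.3 TPM with NaHS (log2 change -1.05), and GRE2, a methylglyoxal reductase, read 361, 337 and 321 TPM in the controls and 190.1, 198 and 147 TPM with NaHS (log2 change -0.94). The groups did not overlap in these genes. OYE2, an old yellow enzyme that reduces quinones and enals, rose, from 129.7, 137 and 136 TPM in the controls to 408, 293 and 228 TPM with NaHS (log2 change 1.16), and OYE3, its relative, read 30.8, 24.4 and 36.9 TPM in the controls and 49.5, 35.5 and 11.6 TPM with NaHS (log2 change -0.13, not called, adjusted p = 0.858). CCP1, the mitochondrial cytochrome c peroxidase, read 2255, 2194 and 2049 TPM in the controls and 1949.5, 1921 and 2693 TPM with NaHS (log2 change -0.0025, not called, adjusted p = 0.992). Among multidrug efflux genes, 10 of 33 tested members fell, 4 of them under every scaling, and 5 rose (30.3% and 15.2%, median log2 change -0.12, 0.10 with median-ratio scaling). There were 5, 6 and 6 fallen without control 1, 2 and 3. As risen, 3, 3, 3 and 3 members counted without control 1, 2 and 3 and NaHS 1. FLR1, an efflux pump of the Yap1 regulon, read 39.2, 36.5 and 38.5 TPM in the controls and 12.97, 12.8 and 10.5 TPM with NaHS (log2 change -1.58), and AUS1, a sterol importer, rose, from 25.8, 27.0 and 26.1 TPM in the controls to 60.5, 63.5 and 70.4 TPM with NaHS (log2 change 1.27). In the list for arsenic, boron, cyanide and nitrogen compounds, 6 of 23 tested members fell, 2 of them under every scaling, and 2 rose (26.1% and 8.7%, median log2 change -0.39). Leaving out NaHS 3 gave 10 fallen. DAK1, a dihydroxyacetone kinase, fell (-1.23).

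Among regulators of transcription, rises outnumbered falls, except without control 2, where 5 members rose and 5 fell. Of all genes, 28.5% fell and 10.1% rose. Of the transcription factors listed, 7 of 61 tested members fell, 4 of them under every scaling, and 14 rose (11.5% and 23%, median log2 change 0.033). As risen, 7, 5, 7 and 25 members counted without control 1, 2 and 3 and NaHS 3. HAP4, the regulatory subunit of the respiratory activator, read 67.8, 54.4 and 68.9 TPM in the controls and 196, 122 and 202 TPM with NaHS (log2 change 1.40), and RTG1, which relays mitochondrial state to the nucleus, read 46.7, 40.6 and 46.8 TPM in the controls and 87.0, 92.9 and 84.9 TPM with NaHS (log2 change 0.97). TYE7, an activator of glycolytic genes, read 2.23, 2.61 and 2.87 TPM in the controls and 7.49, 7.60 and 9.84 TPM with NaHS (log2 change 1.38). All NaHS values of these 3 lay above the controls. XBP1, a repressor made in starved and stressed cells, read 836, 859 and 789 TPM in the controls and 198, 220.1 and 149.5 TPM with NaHS (log2 change -2.14, SE 0.16, adjusted p = 0.00047). LST8, a subunit of both TOR complexes, rose, from 113, 106 and 98.6 TPM in the controls to 252, 295 and 340.1 TPM with NaHS (log2 change 1.47, SE 0.14, adjusted p = 0.000805), and SCH9 (-0.84) and TPK2 (-0.95), kinases of the TOR and cAMP pathways, fell. YOR338W, the largest rise among the ranked genes with a position, read 59.3, 52.0 and 55.1 TPM in the controls and 223, 199 and 354 TPM with NaHS (log2 change 2.16, SE 0.22, adjusted p = 0.0011). YLR217W rose more, from 55.1, 55.03 and 55.3 TPM in the controls to 356, 361 and 319 TPM with NaHS, but is a frame without a position here whose number neighbours that of the chaperone gene CPR6, so shared reads cannot be told apart. In meiosis and spore formation, 13 of 47 tested members fell, 13 of them under every scaling, and 1 rose (27.7% and 2.13%, median log2 change -0.21). IME1, the inducer of meiosis, read 43.9, 38.9 and 38.6 TPM in the controls and 6.35, 9.21 and 3.52 TPM with NaHS (log2 change -2.57), and the spore wall gene SPS100 read 63.2, 60.4 and 54.5 TPM in the controls and 3.42, 5.80 and 9.46 TPM with NaHS (log2 change -3.15), in a haploid strain. HBT1, a substrate of the ubiquitin-like protein Hub1, read 109, 105.4 and 106 TPM in the controls and 11.6, 14.5 and 11.6 TPM with NaHS (log2 change -3.0001, SE 0.12, adjusted p = 0.000173), and the gene HAB1 read 220.5, 262 and 242 TPM in the controls and 29.1, 26.3 and 19.2 TPM with NaHS (log2 change -3.25).

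With the deposited values, metal, phosphate and plasma membrane ion transport had 33.3% to 38.9% of members fallen, against 28.5% of all genes. Under every scaling the ion transport share was smaller than that of all genes, 2 of 18 members against 16.0%. In metal transport, 10 of 30 tested members fell, 6 of them under every scaling, and 2 rose (33.3% and 6.67%, median log2 change -0.54). As fallen, 6 and 6 members counted without control 2 and 3. SMF1, a manganese transporter, read 18.8, 16.9 and 19.2 TPM in the controls and 7.23, 7.24 and 4.57 TPM with NaHS (log2 change -1.42), and ZRC1, the vacuolar zinc transporter, read 528, 512 and 536 TPM in the controls and 448, 422 and 381 TPM with NaHS (log2 change -0.34, not called under another scaling, not called without control 1, 2 or 3 or NaHS 1 or 2, adjusted p up to 0.13). In phosphate uptake and storage, 9 of 25 tested members fell, 7 of them under every scaling, and 1 rose (36% and 4%, median log2 change -0.29). SPL2, which turns down low-affinity phosphate uptake, read 28.8, 40.5 and 28.2 TPM in the controls and 7.68, 8.61 and 6.95 TPM with NaHS (log2 change -1.92), PHO91 fell (-1.89), and PHO4, the activator of the pathway, rose, from 148, 142 and 156 TPM in the controls to 249, 234 and 203 TPM with NaHS (log2 change 0.61). For plasma membrane ion transport, 7 of 18 tested members fell, 2 of them under every scaling, and 1 rose (38.9% and 5.56%, median log2 change -0.25). As fallen, 3, 3, 4 and 4 members counted without control 1, 2 and 3 and NaHS 1. The proton pump gene PMA1 read 425, 389.8 and 428 TPM in the controls and 560.4, 520.1 and 471 TPM with NaHS (log2 change 0.32, not called, adjusted p = 0.0573, but called without NaHS 3 at 0.38, and called with median-ratio scaling at 0.58, and called with upper-quartile scaling at 0.66). MRH1, a membrane protein related to the heat shock protein Hsp30, read 72.6, 68.8 and 82.2 TPM in the controls and 22.9, 24.2 and 36.2 TPM with NaHS (log2 change -1.42).

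In the proteasome, mitochondrial ribosome and mRNA lists, single genes changed by more than 1 log2 unit. The shares to set beside these lists are the 28.5% fallen and 10.1% risen of all genes. For the proteasome, 13 of 42 tested members fell, 4 of them under every scaling, and 3 rose (31% and 7.14%, median log2 change -0.12, 0.13 with median-ratio scaling). There were 7, 7, 7, 8, 8 and 22 fallen without control 1, 2 and 3 and NaHS 1, 2 and 3. The falls over all genes moved the same way, from 1743 to 1100, 1093, 1164, 1467, 1526 and 2321. PUP1, a catalytic subunit, read 173, 171 and 181 TPM in the controls and 56.3, 53.9 and 24.4 TPM with NaHS (log2 change -2.03), apart from the controls in every NaHS library. RPN4, the activator of proteasome genes, read 54.3, 51.0 and 57.6 TPM in the controls and 63.95, 68.1 and 45.7 TPM with NaHS (log2 change 0.10, not called, adjusted p = 0.654, but called without NaHS 3 at 0.28, and called with upper-quartile scaling at 0.44). For the mitochondrial ribosome, 6 of 70 tested members fell, 1 of them under every scaling, and 8 rose (8.57% and 11.4%, median log2 change -0.19, 0.065 with median-ratio scaling). There were 1, 1, 1, 3 and 14 fallen without control 1, 2 and 3 and NaHS 1 and 3. As risen, 4, 3, 4, 5 and 17 members counted without control 1, 2 and 3 and NaHS 1 and 3. RSM18, a small subunit protein, rose from 103, 98.0 and 98.8 TPM in the controls to 209, 196 and 326 TPM with NaHS (log2 change 1.24). For mRNA decay, export and 3' end formation, 15 of 70 tested members fell, 9 of them under every scaling, and 8 rose (21.4% and 11.4%, median log2 change -0.17, 0.062 with median-ratio scaling). As fallen, 8, 9 and 23 members counted without control 1 and 2 and NaHS 3. As risen, 5, 5, 3 and 5 members counted without control 1, 2 and 3 and NaHS 1. The export receptor gene MEX67 rose (0.92), and SKI8, of the complex that feeds the exosome, fell (-1.24).

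In the histone, spindle and mating lists 16.7% to 29.7% of members fell, against 28.5% of all genes. The histone and mating counts moved without NaHS 3, as did the falls over all genes, from 1743 to 2321. Among histones, 3 of 18 tested members fell, 2 of them under every scaling, and 1 rose (16.7% and 5.56%, median log2 change -0.19, 0.047 with median-ratio scaling). Without NaHS 3, 8 fell. HTB1, a histone H2B gene, read 437, 376 and 486 TPM in the controls and 217, 173 and 160.1 TPM with NaHS (log2 change -1.24), without overlap. For kinetochore, cohesin and spindle genes, 11 of 37 tested members fell, 5 of them under every scaling, and 1 rose (29.7% and 2.7%, median log2 change -0.30). There were 7 and 6 fallen without control 1 and 2. The beta-tubulin gene TUB2 read 35.0, 35.2 and 38.1 TPM in the controls and 13.5, 13.8 and 14.5 TPM with NaHS (log2 change -1.31). For mating type and pheromone response, 10 of 42 tested members fell, 5 of them under every scaling, and 5 rose (23.8% and 11.9%, median log2 change -0.27). There were 6 and 18 fallen without control 2 and NaHS 3. As risen, 1, 2, 1, 2 and 9 members counted without control 1, 2 and 3 and NaHS 2 and 3. RAM2, a prenyltransferase subunit, fell (-1.05). In the list of cytokinesis, septins and daughter separation, 9 of 28 tested members fell, 6 of them under every scaling, and 2 rose (32.1% and 7.14%, median log2 change -0.28). ASH1, PIR1 and BUD9 were among the fallen. Fits without control 1, 2 and 3 had 5, 5 and 5 fallen. Of the daughter separation genes, AMN1, CTS1, DSE1, DSE2 and SCW11 were not called, and CTS1, the chitinase, read 11.4, 8.37 and 9.78 TPM in the controls and 6.85, 6.12 and 11.8 TPM with NaHS (log2 change -0.27, not called, adjusted p = 0.427, but called without NaHS 3 at -0.53). In the anaerobic list, 6 of 26 tested members fell, 2 of them under every scaling, and 2 rose (23.1% and 7.69%, median log2 change -0.41). Leaving out control 2 and 3 and NaHS 1 gave 2, 2 and 3 fallen. ROX1, the repressor of anaerobic genes, read 73.9, 67.0 and 67.0 TPM in the controls and 257, 203 and 86.9 TPM with NaHS (log2 change 1.25, not called without control 1, 2 or 3 or NaHS 1 or 2, adjusted p up to 0.12), with NaHS 3 closest to the controls.

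The remaining ranked and most abundant genes were mixed in kind. RCK1, a protein kinase gene, read 50.1, 67.0 and 67.6 TPM in the controls and 10.9, 7.46 and 1.74 TPM with NaHS (log2 change -3.25), and YDL218W read 53.1, 46.8 and 71.9 TPM in the controls and 4.76, 4.04 and 3.56 TPM with NaHS (log2 change -3.49). Both were far below the controls in each NaHS library. Of the rises, YKR075C read 95.2, 91.9 and 99.5 TPM in the controls and 238, 216 and 447 TPM with NaHS (log2 change 1.56), and the small nucleolar RNA gene SNR81 read 13.7, 9.99 and 4.05 TPM in the controls and 32.3, 25.4 and 25.1 TPM with NaHS (log2 change 1.60, not called without control 2 or NaHS 1, adjusted p up to 0.0581). The frames YMR193C-A (1.61, not called without control 2, adjusted p up to 0.0513), YPR170C (1.58), YML090W (1.58) and YDR029W (1.57) rose as well. Among abundant transcripts, HOR7, a gene of osmotic stress, read 4477, 3785 and 3796 TPM in the controls and 7953, 7209 and 12384 TPM with NaHS (log2 change 1.15), and TMA10, which encodes a ribosome-associated protein, read 4579, 5383 and 4506 TPM in the controls and 7752, 7631 and 10189 TPM with NaHS (log2 change 0.81). SPO24 (0.55, not called without control 1, 2 or 3 or NaHS 2, adjusted p up to 0.11) and the ribosomal RNA entry RDN37-1 (1.12, not called without control 1, 2 or 3, adjusted p up to 0.099) were also called higher. POR1, the mitochondrial porin gene, read 6764, 6402 and 6427 TPM in the controls and 5649.9, 5191 and 5019.9 TPM with NaHS (log2 change -0.31, not called under another scaling, not called without control 1, 2 or 3 or NaHS 1 or 2, adjusted p up to 0.167), and DDR2, a stress gene, read 5283, 5281 and 4942 TPM in the controls and 2956, 3392 and 4412 TPM with NaHS (log2 change -0.55, not called under another scaling, not called without control 1, 2 or 3 or NaHS 1 or 2, adjusted p up to 0.117).

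Counts of 3 or fewer risen members are given without their values when a library is left out. Across all 56 lists, 47 had more members fallen than risen, 7 more risen and 2 equal numbers. Counting calls that held under every scaling, from which only falls dropped out, these were 37, 11 and 8. Calls in both directions were a larger share among well-expressed genes. Of 1088 coding genes with a mean of 1 to 5 TPM, 17.1% fell and 5.88% rose. Of 972 with 100 to 500 TPM, 37.4% fell and 13.2% rose, and of 374 above 500 TPM, 34.8% fell and 22.2% rose. Near chromosome ends rises were few, with 1 of 94 genes within 10 kb of an end risen (1.06%) and 11% of 4183 genes beyond 100 kb. The falls there were 29.8% and 28.3%, and the median log2 changes -0.51 and -0.21. Spearman's rho across 5543 coding genes, which share libraries and are not replicates, was -0.09 between the log2 change and the mean TPM and -0.04 with the coding length. Of the promoter elements searched on both strands in the same window, the stress element AGGGG was in 22.0% of all promoters, in 25.4% of those of fallen genes and in 36.3% of the 102 whose genes fell by at least 2 log2 units. The GATA element GATAAG was in 15.0%, 15.0% and 23.5%, and CCAAT in 43.5%, 47.9% and 48.0%. For genes called higher these shares were 23.2%, 13.2% and 41.1%. The Yap1 element TTACTAA was in 7.65% of all, 8.79% of risen and 7.80% of fallen genes' promoters. The Gcn4 element TGACTC was in 8.21%, 10.7% and 9.21%. The remaining elements had these shares among all, risen and fallen genes' promoters. The MBF element, ACGCGT, was in 2.80%, 1.58% and 3.17%, and the SBF element, CGCGAAA, in 3.34%, 2.81% and 3.17%. The Rpn4 element, GGTGGCAAA, was in 1.25%, 0.879% and 1.65%, and the core of the element of Pdr1 and Pdr3, TCCGCGGA, in 0.217%, 0.176% and 0.244%. The rRNA processing element core, TGAAAAATT, was in 6.15%, 6.85% and 5.49%. None of these letter strings lies within another, and no match or its absence shows whether a factor acts there.

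**Figure D5:**
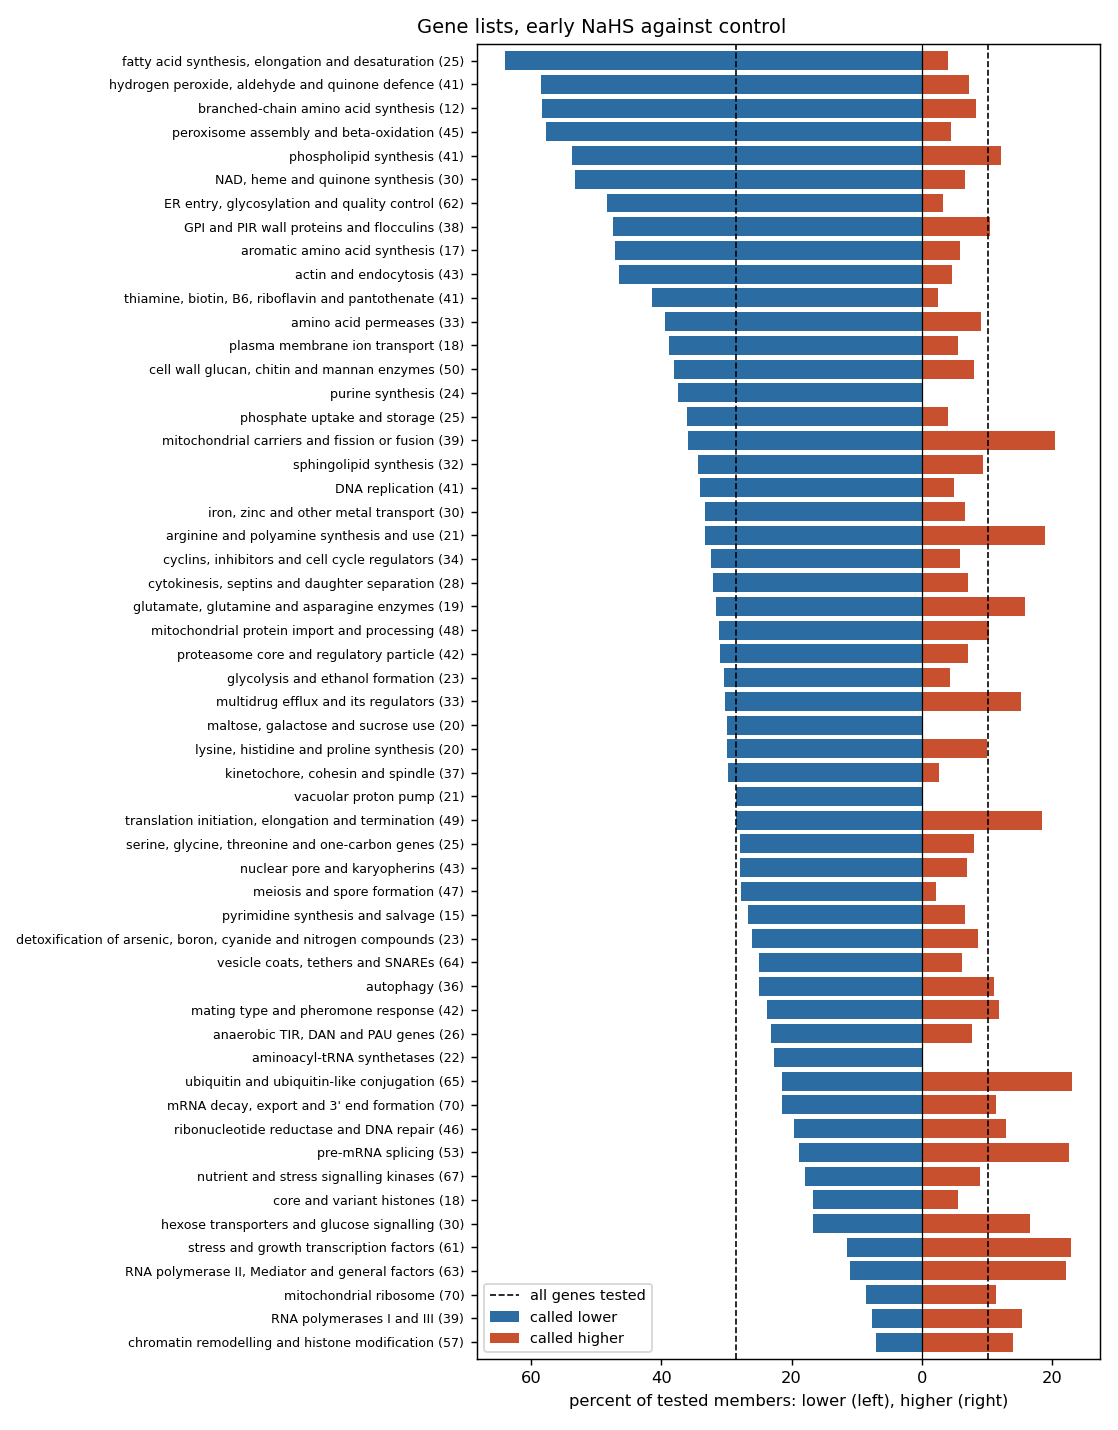
Percent of tested members called lower (left, blue) and higher (right, orange) in each list of at least 10 tested genes, with the number tested in brackets and the shares of all genes tested as dashed lines. Fatty acid synthesis lies at the top with 64% lower, and the polymerase, chromatin and transcription factor lists lie near the bottom with few falls and more rises.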

How the data were processed

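The authors deposited a table of TPM values for the 6 early libraries. The unit was read from the deposited values, whose totals lay between 998109 and 998610, and the depth per library is unknown, so no counting interval or floor is given. Per the labels' protocols, TRIzol RNA was cleared of DNA and sequenced as paired-end TruSeq libraries, with SeqPrep, Sickle and TopHat for the reads. Per the submitters' processing notes, Bowtie 0.12.2 and the R64 reference were used. Which program gave the TPM, from which annotation and with or without strand, is not given in the sources used here. Values of overlapping and near-identical genes are therefore uncertain. The late table, normalized separately, is not used here.

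From the TPM values, log2(TPM + 1) was fitted with limma 3.58.1 in R 4.3.3 (trend, 2-sided, no block), with Benjamini-Hochberg adjustment over the 6124 genes with a mean of at least 1 TPM. An entry had to name a gene, which left out 319 entries. On simulated data for this comparison with 6124 genes, 64 of 100 genes moved by 1 log2 unit and 85 of 100 moved by 2 were recovered. The moved genes were drawn from the better expressed, with independent noise and the same spread in both groups. Recovery of weakly expressed genes, or with a library that stands apart as NaHS 3 does, was not simulated. Replicate numbers were not used as pairs. A further promoter element is not reported here. Positions and promoters were read from R64, to which 6169 of the 7126 genes were matched. Genes were named by a rule: outside the left-aside genes and genes with a 0, a mean of at least 10 TPM, an adjusted p below 0.05 and no overlap, the 15 largest changes in each direction, key genes and the 3 largest changes of each list, and the 5 most abundant called genes in each direction. It picked 450 genes, of which 200 have values in the text, and that choice and other named genes were made after values were seen. Members, lists and rules were chosen with earlier results of these data known. Alternatives were another pseudocount, filter, scaling, prior, the replicate block and each library left out.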

Additional observations from a re-analysis of the deposited data

How the results depend on the processing

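The 2359 calls were 2317 and 2413 with pseudocounts of 0.1 and 5, 2340 without a filter, 2350 without the trend and 2355 with robust estimation. With a mean of at least 10 TPM they were 1953 of 4134 genes. With a minimum log2 change of 1 there were 935, of which 160 were higher and 775 lower. Scaling moved the split: median-ratio scaling gave 1066 higher and 1123 lower, upper-quartile scaling 1227 and 978, and rescaling without the CUP1 repeat and ribosomal RNA 870 and 1344. A call in the same direction under the deposited, median-ratio and upper-quartile scalings, a rule added after seeing the data, left 616 higher and 978 lower, so only falls were lost. Leaving out 1 library gave 1392 to 3267 calls, 299 to 946 higher and 1093 to 2321 lower, and 265 higher and 1002 lower genes kept their call in all 6 such fits. With the replicate number as a block there were 1860 calls (424 higher, 1436 lower), and libraries of the same number did not deviate together (correlations of -0.03, -0.01 and -0.03), so the numbers were not used as pairs.

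Of 232 genes named with values and tested, 207 were called, and none of these changed direction under any alternative except ZRC1 and POR1, at 0.0069 and 0.036 with upper-quartile scaling. Uncalled genes changed direction with scaling. GLN1 stood at 0.24, 0.32 and 0.11 with median-ratio, upper-quartile and rescaled values, and CCP1 at 0.26, 0.34 and 0.13. OYE3 stood at 0.12 and 0.20 with median-ratio and upper-quartile scaling. With upper-quartile scaling SED1 stood at 0.068, CTS1 at 0.040 and ENO1 at 0.0021. Over the fits without 1 library, the log2 change ranged as follows: PYC1 -0.15 to 0.26, SED1 -0.47 to 0.10, CAR1 -1.001 to 0.27, GLN1 -0.47 to 0.72, ILV5 -1.02 to 0.23, ENO1 -0.87 to 0.71, ZRT1 -0.096 to 1.27, RPN4 -0.0046 to 0.28, OYE3 -0.54 to 0.46 and CCP1 -0.16 to 0.082. The cause of these moves was not tested. The deposited TPM give no depth, so low levels have an unknown counting error.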

Other observations

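Related genes did not always move together. Pairs of reciprocal best matches were drawn from the translated coding sequences of R64 with blastp, at an E value of at most 1e-20, at least 40% identity and an alignment of at least 70% of the longer protein. Of 320 tested pairs under 90% identity, both genes fell in 61, both rose in 5, and 14 had a gene called lower and a gene called higher. In 151 pairs a single gene was called and in 89 neither was. Among all genes 28.5% fell and 10.1% rose, so opposite calls also arise in pairs of unrelated genes. Whether related genes part more or less often than unrelated ones was not tested. The opposite calls held under the deposited, median-ratio and upper-quartile scalings in 8 pairs, and in 3 of these also in every fit without 1 library. This search was chosen after values were seen.

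The 3 pairs were SIR2 and HST1, SNC1 and SNC2, and YMC1 and YMC2. SIR2, the silencing deacetylase, fell (log2 change -1.83), and its relative HST1 read 37.4, 35.7 and 38.4 TPM in the controls and 60.3, 58.1 and 57.1 TPM with NaHS (log2 change 0.64). No NaHS value of HST1 reached down to a control value. The v-SNARE gene SNC1 read 511, 518 and 463 TPM in the controls and 312, 322 and 268 TPM with NaHS (log2 change -0.73), and SNC2 read 456, 474 and 439.6 TPM in the controls and 812, 820.5 and 1110.1 TPM with NaHS (log2 change 0.99). SNC2 stood highest in NaHS 3. YMC1, a mitochondrial carrier, read 172, 169.8 and 179 TPM in the controls and 85.3, 81.2 and 66.3 TPM with NaHS (log2 change -1.16), and YMC2 read 26.1, 26.4 and 29.3 TPM in the controls and 68.1, 65.7 and 102 TPM with NaHS (log2 change 1.47). Of the other 5 pairs that held under these scalings, the t-SNARE gene SSO2 fell (-1.15) while SSO1 read 170.3, 157 and 164 TPM in the controls and 244, 242 and 508 TPM with NaHS (log2 change 0.92, not called without control 1, 2 or 3, adjusted p up to 0.132), and the ceramide synthase gene LAG1 fell (-1.06) while LAC1 rose (0.66, not called without control 1, adjusted p up to 0.0597). Another 137 pairs had at least 90% identity, with 7 opposite calls, and reads may be shared within them.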
